A study of Bos taurus with 6 samples.

Results

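The genes described here are 10 transcription factors that the LH surge is known to induce as immediate early genes in the ovary, followed in cultured bovine granulosa cells (GC) at different plating densities. They are the nuclear receptors NR4A1, NR4A2 and NR4A3, the zinc finger factors EGR1, KLF4 and KLF6, and the AP-1 subunits FOS, FOSL2, JUN and JUNB. The members were every row of the deposited table whose gene symbol equals one of these names, which gave 10 of 26773 transcript clusters, the array's unit for a gene, with 1 transcript cluster per symbol.

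RNA came from 6 cultures of primary GC, 3 plated at normal density (100000 cells per well) and 3 at high density (1000000 cells per well), with 1 Bovine Gene 1.0 ST Array per culture. All cultures were kept serum-free for 9 days on collagen, with 20 ng/ml FSH, 50 ng/ml IGF-1 and, as the substrate for estradiol, 2 μM androstenedione, and the treatments named in the methods do not include LH. The cells were pools from many follicles of many cows. Whether cultures of equal replicate number shared a pool is not given in the sources used here. The p-values therefore measure the spread between these cultures.

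Immediate early genes are transcribed within minutes of a stimulus without new protein synthesis, and their messengers are usually short-lived. In GC, LH acts through cAMP and protein kinase A and through ERK, which activate CREB and serum response factor at the promoters of these genes. Their products then act on later genes, among them those of ovulation and steroid synthesis. The arrays give 1 time point, day 9, so they show the level of these messengers in long-term culture and not an acute response.

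Signals are log2 values, and differences are log2 fold changes of high minus normal density with limma's standard error and adjusted p. A gene is termed called, as in the methods, at a fold change over 1.5 with p and FDR below 0.05. A signal of 4.62, the 95th percentile of 82 reporter control rows, served as background level. Array medians lay between 4.34 and 4.43, and the median difference over all transcript clusters was 0.02. At high density the arrays varied more, with a median SD over all transcript clusters of 0.13 against 0.08 at normal density, and 7 of the 10 factors had the larger SD at high density. Of the GC markers listed for this purpose 14 of 14 were found, none of them below background at both densities. Of these 1 rose and 6 fell, against 7.49% of all transcript clusters called in either direction. LHCGR, the LH receptor, was below background at both densities, with mean signals of 4.04 and 2.84. The authors reported its messenger as lower at high density, on these arrays and by qPCR. In cultures measured as a whole, fewer cells of a type and less RNA per cell cannot be told apart.

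At high density 4 of the 10 factors rose, NR4A1, JUNB, EGR1 and KLF6, and none fell. Of all transcript clusters, 3.97% of the transcript clusters were called higher, and 7.49% were called in either direction. Among the 8 factors that were above background in at least 1 culture, 4 were called higher, against 6.92% of the 13579 transcript clusters that met this condition. At any fold change 5 of the 10 factors had an adjusted p below 0.05, against 19.1% of all transcript clusters. In 6 of the 10 the cultures of one density did not overlap with those of the other, and this was true of 37.3% of all transcript clusters. The median log2 fold change of the 10 factors was 0.29.

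**Figure D1:**
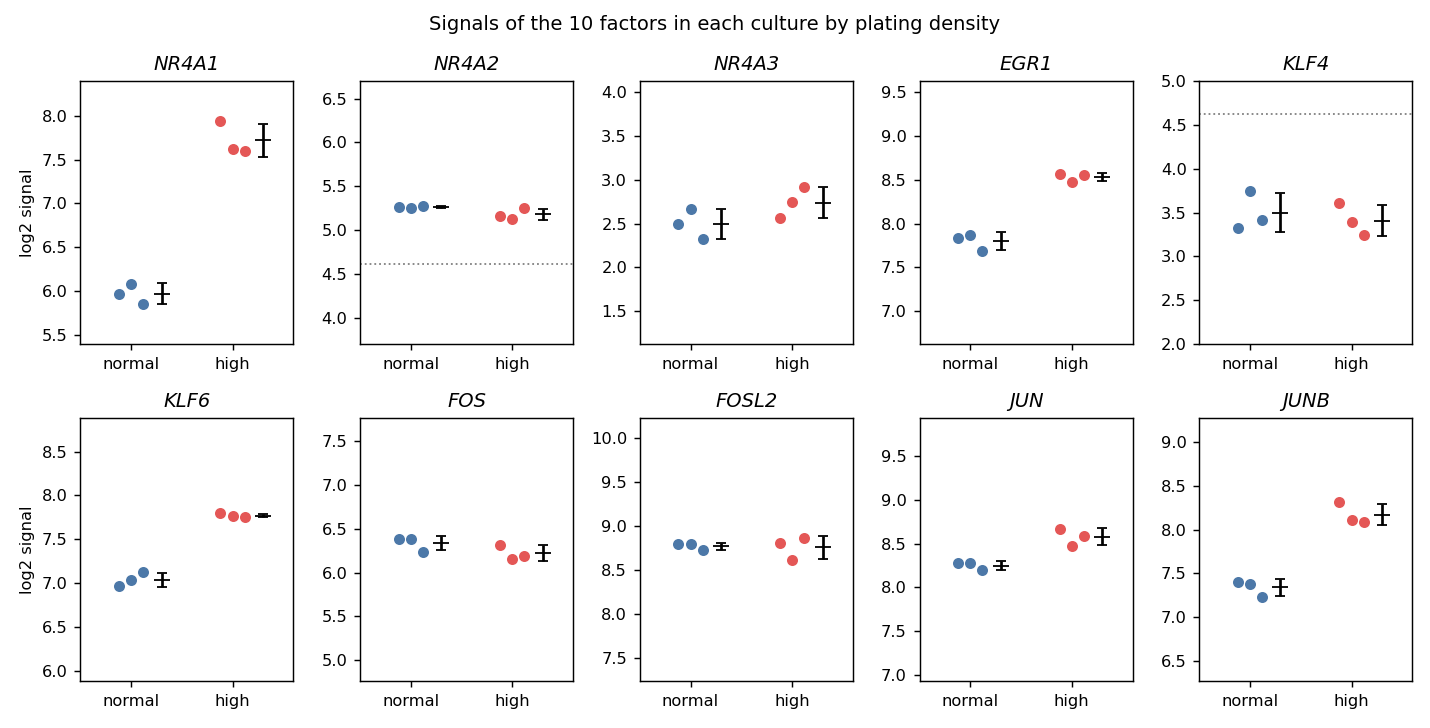
Each panel shows the log2 signal (y axis, 3 log2 units in every panel, with different origins) of 1 factor in the 3 normal density (blue) and 3 high density (red) cultures, with mean and SD in black; the dotted line is the background level where it lies in the panel. The signals of NR4A1, EGR1, KLF6 and JUNB are clearly separated by density, those of FOS and FOSL2 overlap, and NR4A3 and KLF4 lie below 4.62 throughout.

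The NR4A receptors are orphan nuclear receptors that bind DNA as monomers or dimers without a known physiological ligand, and in steroidogenic cells they act on genes that NR5A receptors also bind. NR4A1 (Nur77; transcript cluster 12866799) had signals of 5.97, 6.08 and 5.85 at normal density and 7.94, 7.62 and 7.60 at high density. All high density cultures were far above all normal density cultures, with a gap of 1.52 between the groups. This was a 3.37-fold rise, or 1.75 ± 0.11 (SE) on the log2 scale, with limma's adjusted p = 9.73e-05. It was the strongest change of the 10 factors, and only 0.452% of all transcript clusters had a larger log2 fold change. With any single culture left out the log2 fold change stayed between 1.64 and 1.81.

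The paralogs of NR4A1 were not called. NR4A2 (Nurr1; 12778619) was measured at 5.26, 5.25 and 5.27 at normal density and at 5.16, 5.13 and 5.25 at high density. The groups were apart by no more than 0.00042, and the log2 fold change was −0.08 (95% interval −0.24 to 0.07, limma's adjusted p = 0.447), so that a change past the fold threshold in either direction lay outside the interval. NR4A3 (Nor1; 12890889) gave 2.49, 2.67 and 2.33 at normal density and 2.56, 2.75 and 2.92 at high density. All 6 values were below background and the groups overlapped, which leaves no fold change to state (limma's adjusted p = 0.205).

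EGR1 is a zinc finger activator that is induced through serum response elements and acts on genes such as PTGES and LHB. Its signals (transcript cluster 12877406) were 7.84, 7.87 and 7.69 at normal density and 8.56, 8.47 and 8.55 at high density. The groups did not overlap, and the high density cultures lay close together with an SD of 0.05. The rise was 1.65-fold, or 0.73 ± 0.08 (SE) on the log2 scale (limma's adjusted p = 0.000796).

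KLF6 and KLF4 are Krüppel-like factors that bind CACCC boxes and related promoter elements. KLF6 (12714168) was measured at 6.97, 7.03 and 7.13 at normal density and at 7.80, 7.77 and 7.75 at high density. These groups were apart by 0.62, and the SD at high density was 0.02. KLF6 thus rose 1.66-fold, or by 0.73 ± 0.07 (SE) on the log2 scale (limma's adjusted p = 0.000572). For both EGR1 and KLF6 the 95% interval reached slightly below the log2 fold threshold of 0.58, to 0.55 and 0.56. KLF4 (12894113) had signals of 3.33, 3.75 and 3.42 at normal density and of 3.61, 3.39 and 3.25 at high density, all below background and overlapping (limma's adjusted p = 0.716).

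AP-1 is a dimer of a JUN protein with a FOS, ATF or other JUN protein. Of the measured subunits JUNB (12885365) rose, from 7.40, 7.38 and 7.23 at normal density to 8.32, 8.11 and 8.09 at high density. The groups were separated by 0.69, and the rise was 1.79-fold, or 0.84 ± 0.09 (SE) on the log2 scale (limma's adjusted p = 0.000894). Its 95% interval, 0.62 to 1.05, lay above the fold threshold.

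JUN (12835737), the stronger transactivator of the family, was measured at 8.28, 8.28 and 8.20 at normal density and at 8.67, 8.47 and 8.59 at high density. These groups did not overlap either, but the difference was small. The log2 fold change of 0.32 (95% interval 0.14 to 0.51, limma's adjusted p = 0.0262) was a 1.25-fold difference, below the fold threshold. The adjusted p of JUN depended on the setting and was between 0.00675 and 0.103 over 15 alternatives, in 7 of them not below 0.05.

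FOS (12687887) gave 6.38, 6.38 and 6.24 at normal density and 6.31, 6.15 and 6.19 at high density. The groups overlapped, with a log2 fold change of −0.12 (95% interval −0.31 to 0.07, limma's adjusted p = 0.346). FOSL2 (12705036), a FOS-related partner of JUN proteins, had 8.79, 8.80 and 8.73 against 8.81, 8.61 and 8.86. Its log2 fold change was −0.02 (95% interval −0.22 to 0.18, limma's adjusted p = 0.923). For FOS and FOSL2 a change past the fold threshold in either direction lay outside the 95% interval.

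**Figure D2:**
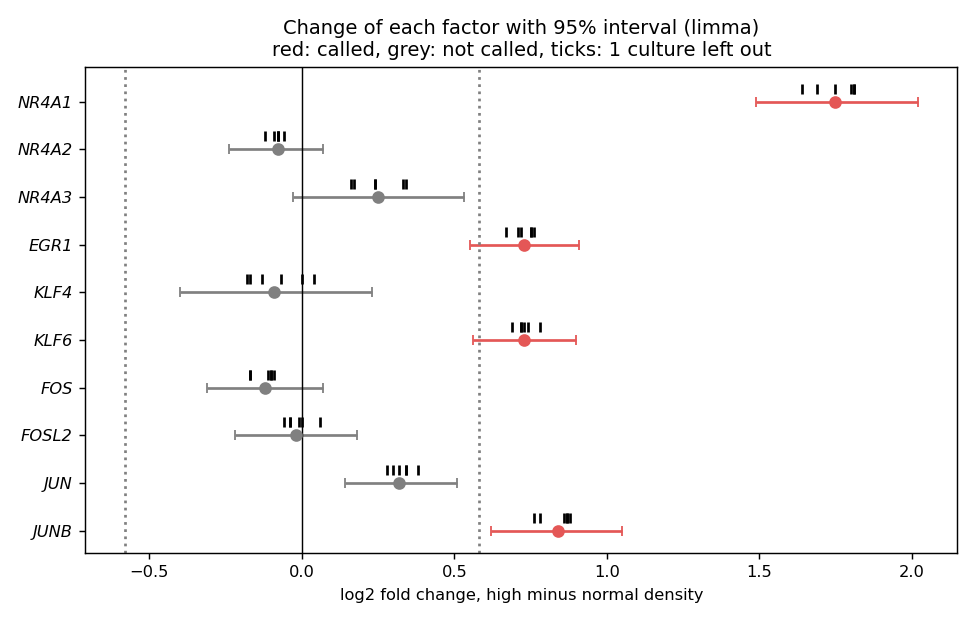
Log2 fold change of each factor, high minus normal density (x axis), with its 95% interval from limma; red points are called, grey points are not, dotted lines mark the fold threshold (0.58 on the log2 scale), and ticks above each point are the values with 1 culture left out. NR4A1 stands at 1.75, EGR1, KLF6 and JUNB lie between 0.73 and 0.84, and the 6 others lie between −0.12 and 0.32.

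Since a call in one paralog and not in another does not show that they differ, the difference of their changes was tested for 7 pairs with a two-sided exact permutation test over the 6 cultures. The smallest p this design allows is 0.1, and 0.14 after adjustment over the 7 pairs. NR4A1 rose by 1.84 log2 units more than NR4A2 and by 1.5 more than NR4A3 (exact p = 0.1 for each). Taken culture by culture, the difference of the NR4A1 and NR4A2 signals, which is no comparison of their levels, was 0.58 to 0.83 at normal density and 2.35 to 2.77 at high density, without overlap. The change of JUN was below that of JUNB by 0.51 and below that of JUND by 0.46, and the change of KLF4 was below that of KLF6 by 0.82 (exact p = 0.1 for each, the smallest possible). FOS and FOSL2 differed by 0.11 and NR4A2 and NR4A3 by 0.33 in size, with overlapping groups (exact p = 0.2 for each). NR4A3 and KLF4 were below background, so the differences that involve them are limited on that side.

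**Figure D3:**
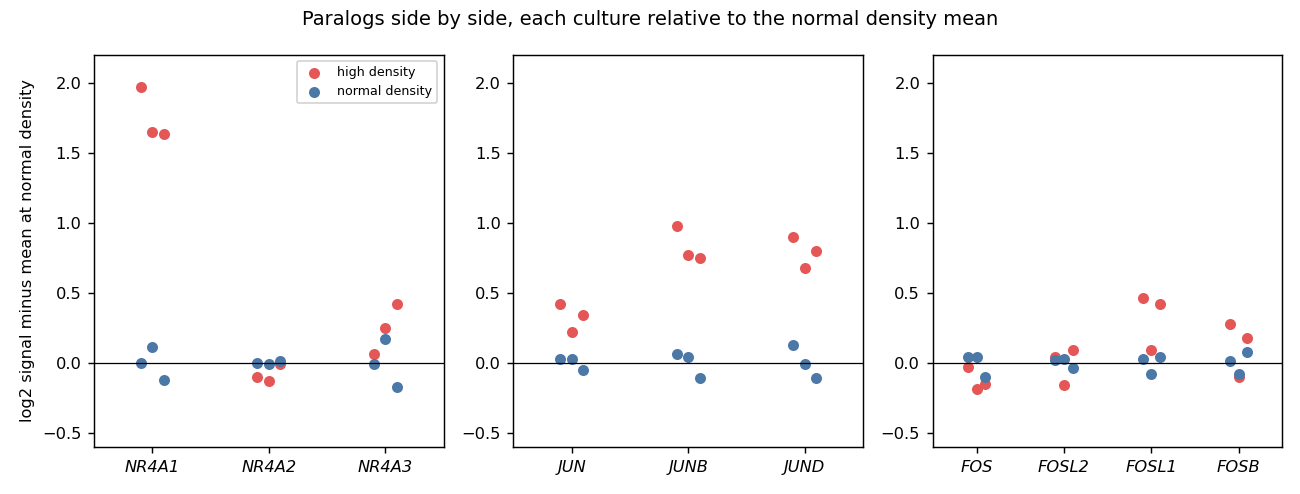
Log2 signal of each culture minus the mean of the normal density cultures (y axis) for the NR4A, JUN and FOS paralogs; blue points are normal density and red points high density cultures, 3 each. Only NR4A1 in its family lies above 1.5 at high density, JUNB and JUND lie together above JUN, and the FOS paralogs lie within 0.5 of the normal density mean.

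Other immediate early genes were taken from a list of 36, mostly transcription factors, of which 35 were found. Of these 7 rose, none fell and 28 were not called, with a median log2 fold change of 0.17 against 0.02 over the table. The share called higher over the table was 3.97%. CTGF (CCN2), a matricellular protein and not a transcription factor, had the largest log2 fold change, 1.59, and its signals at high density were 10.73, 10.74 and 10.73. The circadian repressor BHLHE40 followed with 1.03, and the HMG box factor SOX9 with 0.83. JUND, the other JUN protein, changed by 0.79 ± 0.09 (SE; limma's adjusted p = 0.00127), NFIL3, a bZIP repressor, by 0.79, and ATF3, a stress-induced partner of JUN, by 0.72.

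EGR2, a paralog of EGR1, rose from signals of 4.32, 4.20 and 4.42, all below background, to 5.24, 4.95 and 4.85. The rise was at least 1.31-fold when measured from the background level (limma's adjusted p = 0.00606), and the call was lost with the methods' t-test (adjusted p = 0.0504). EGR3, EGR4, FOSB, IER2, NPAS4 and MAFF were below background at both densities. CYR61, like CTGF a matricellular protein, and IER3 were above background in all cultures and not called. Their log2 fold changes were −0.16 and −0.06 (limma's adjusted p = 0.181 and 0.621). KLF10 and CEBPD had log2 fold changes of −0.48 and −0.54 (limma's adjusted p = 0.00939 and 0.00178), in the opposite direction to KLF6 and short of the fold threshold.

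Of 29 transcript clusters for CREB, CRTC, ELK, MEF2, MKL and related activators or partners, 1 rose and 1 fell, with a median log2 fold change of 0.03. This share of called genes is close to the 7.49% of the whole array. ATF4, a bZIP factor translated under stress, rose by 0.80 (limma's adjusted p = 0.000551). MEF2C, a MADS box factor that activates JUN in other cell types, had signals of 6.75, 6.64 and 6.94 at normal density and 5.44, 5.77 and 5.45 at high density. The groups did not overlap, and the log2 fold change was −1.22 (limma's adjusted p = 0.000551). CREB1 had a log2 fold change of −0.14 (limma's adjusted p = 0.351) and SRF, from the list of immediate early genes, one of 0.31 (limma's adjusted p = 0.0346), and neither was called.

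Among 17 transcript clusters of corepressors, ERK phosphatases and regulators of messenger decay, 2 rose and none fell, with a median of −0.07. Of all transcript clusters, 3.97% were called higher and 7.49% in either direction. NAB2, a corepressor of EGR1 that EGR1 itself induces, rose from 5.35, 5.2 and 5.06 to 6.05, 5.70 and 5.92, a log2 fold change of 0.69 (limma's adjusted p = 0.00619). With the methods' t-test its adjusted p was 0.0504. NAB1, the paralog of NAB2, was not called, with overlapping groups and a log2 fold change of −0.08 (limma's adjusted p = 0.698). The messenger decay factors ZFP36 and ZFP36L1, themselves immediate early genes, had log2 fold changes of 0.58 and 0.57 (limma's adjusted p = 0.00764 and 0.00485), just below the fold threshold. The other called transcript cluster, that of the phosphatase DUSP4, was below background at both densities. The count for this list rose from 2 to 4 without high density replicate 2 and with a second quantile normalization, and was 1 with the methods' t-test and with the filter at background.

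**Figure D4:**
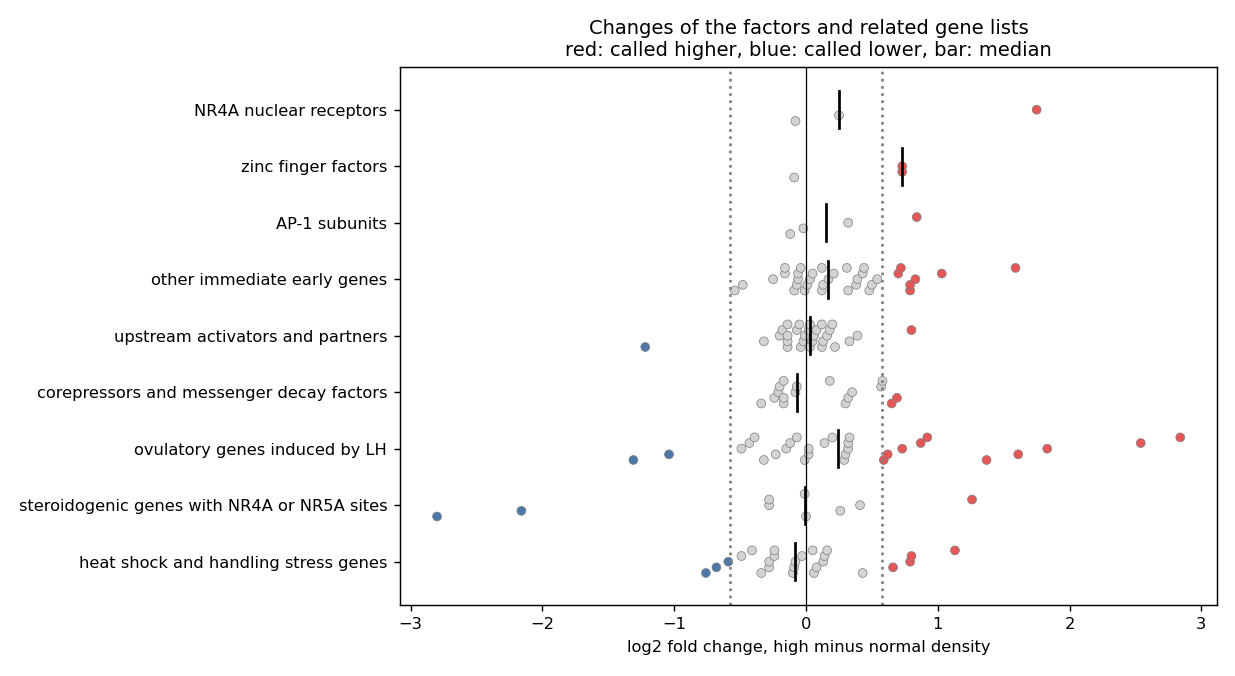
Log2 fold changes, high minus normal density (x axis), of the transcript clusters in each list; red points are called higher, blue points called lower, grey points not called, black bars are medians and dotted lines the fold threshold. The called genes among the 10 factors and the other immediate early genes are all higher at high density, while the lists of ovulatory, steroidogenic and stress genes hold called genes on both sides.

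Later genes of the LH response were described with a list of 32 ovulatory genes, of which 29 were found on 30 transcript clusters. Of these 10 rose, 2 fell and 18 were not called, with a median log2 fold change of 0.25. For comparison, 3.97% of all transcript clusters were called higher and 7.49% in either direction. PTGES, the terminal enzyme of prostaglandin E2 synthesis and a known EGR1 target, rose from 6.61, 6.85 and 6.49 to 9.71, 9.33 and 9.43, a log2 fold change of 2.84 (limma's adjusted p = 2.32e-05). VNN2, RGS2, PTX3 and ADAMTS1 rose as well, by 2.54, 1.83, 1.61 and 0.92, and for VNN2 and RGS2, which started below background, the rise was at least 3.94-fold and 2.94-fold. EREG, an EGF-like growth factor, rose by 1.37 and the cytokine LIF by 0.73.

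The rises of RUNX2, 0.59, and SNAP25, 0.62, were close to the fold threshold, and each was lost in some alternatives. HAS2 was called with 0.87 but lay below background at both densities. The genes that fell were TRIB2, a pseudokinase, with −1.31, and VNN1, which dropped below background, by at least 1.35-fold. PTGS2 and PGR, classic LH-induced genes, were uncalled at 0.33 and 0.14 on the log2 scale (limma's adjusted p = 0.0939 and 0.535).

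Of 9 steroidogenic or related genes with known NR4A or NR5A sites, HSD17B1, which converts estrone to estradiol, rose at least 1.78-fold from signals below background. CYP19A1, the aromatase, fell by at least 3.70-fold to signals below background, and the inhibin subunit INHA fell by 2.16 on the log2 scale. The 6 others were not called, while 7.49% of all transcript clusters were called in either direction. Among these 6, CYP11A1 and HSD3B1 had log2 fold changes of 0.26 and −0.28 (limma's adjusted p = 0.0294 and 0.0234). The receptors that bind the same sites, NR5A1 and NR5A2, had log2 fold changes of −0.28 and 0.41 (limma's adjusted p = 0.13 and 0.00482). Both were below the fold threshold. STAR, a steroidogenic gene kept in the list of ovulatory genes, was lower at high density without overlap. Its log2 fold change of −0.49 (limma's adjusted p = 0.0105) was short of the fold threshold.

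Immediate early genes also respond to handling and stress, so such genes were read beside them. Of 25 transcript clusters for heat shock proteins and stress factors, 4 rose, 3 fell and 18 were not called, with a median of −0.08. DDIT3 rose by 1.13, HSPA1A by 0.80, GADD45B by 0.79 and GADD45A by 0.66, while HSPH1 fell by 0.68 on the log2 scale. HSF2 and 1 of the 2 transcript clusters of DNAJA1 were called lower, with −0.76 and −0.59, and lost the call in some alternatives. The part of handling or stress in the rise of the 4 factors was not tested.

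Markers of other cells were read in the same way, beside the 7.49% of all transcript clusters called in either direction. None of 12 leukocyte and none of 7 red blood cell transcript clusters were above background in any culture. Of 13 endothelial transcript clusters CLDN5 alone was called, with 2.81, and 9, with PECAM1, CDH5, KDR and TEK among them, were below background in all cultures. VWF, above background in all cultures, had a log2 fold change of 0.31 with groups that did not overlap (limma's adjusted p = 0.0572), and the ENG transcript clusters had 0.15 and 0.05. The summed signal of the list was 7.63 in every normal density culture and 8.48 to 8.63 at high density on the log2 scale. Most of this rise came from CLDN5, with mean signals of 4.71 and 7.53, and the median log2 fold change of the list was 0.10. Of 8 theca markers INSL3 alone was called, with 1.82, and 4, with CYP17A1 among them, were below background in all cultures. PTCH1, above background in all cultures, was higher at high density by 0.31 (limma's adjusted p = 0.0284), below the fold threshold. The sum of the list moved from 8.95 to 9.10 at normal density to 9.75 to 9.95 at high density. INSL3, with mean signals of 7.20 and 9.02, made up most of this rise, and the median log2 fold change of the theca list was 0.06. Of 8 fibroblast markers COL1A1 and PDGFRB rose, by 1.15 and 0.94, and 4 of the 8 had an adjusted p below 0.05 with limma. COL1A2 and PDGFRA were higher by 0.38 and 0.32 (limma's adjusted p = 0.0165 and 0.0236), below the fold threshold, and LUM and DCN had log2 fold changes of 0.01 and 0.17. The sum moved from 12.84 to 12.86 at normal density to 12.94 to 12.98 at high density. The part of other cells in the rise of the 4 factors was not tested.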

How the data were processed

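The deposited table holds log2 signals per transcript cluster and culture, which the authors obtained with Expression Console, using RMA for background, normalization and gene-level summary. These values were used without further normalization, and the table holds 0 columns of other samples. High and normal density were compared without covariates by the moderated test of limma (version 3.58.1, under R 4.3.3), and p-values were adjusted by Benjamini-Hochberg for the whole table of 26773 transcript clusters. On simulated data of this size with 100 transcript clusters changed by 1 log2 unit, limma called 85.0% of them, and 98.0% of 100 changed by 2 units, with 2 false calls. Unlike the data, the simulation gave both densities the same SD and changed far fewer transcript clusters than were called here. Its rates therefore do not carry over directly, and the changes of EGR1, KLF6 and JUNB were smaller than 1 log2 unit. The number of arrays limits the precision.

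The factors and the gene lists were chosen with earlier results of these data known, the lists from general knowledge. Genes are named by the table's symbols. RefSeq (ARS-UCD2.0) held 10 of the 10 factors by symbol and 8 by accession, without EGR1 and NR4A3. The genome build behind the array annotation is not given in the sources used here, so no positions are given. All 10 factors are named. Of the lists, the largest called genes with groups that do not overlap were named, at most 8 per list and direction, and marker genes as counts and single examples. RUNX2 and SNAP25, the uncalled list genes, the markers and the factor families of the closing section were chosen after their values were seen. A lower bound of a fold change counts signals below background as 4.62. Alternatives were the methods' t-test, eBayes with trend and robust prior, weights per array, a block for the replicate number, other scalings and filters, an FDR of 0.01 and leaving out each culture. The figures were drawn with matplotlib 3.10.9.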

Additional observations from a re-analysis of the deposited data

How the results depend on the processing

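In all 15 alternatives NR4A1, EGR1, KLF6 and JUNB were called higher and none of the other factors was called, and the shared genes were 4 of 4 each time. KLF4 and NR4A3 could not be tested with the filter at background. The directions of values near 0 were not fixed. FOSL2 changed sign with array weights (0.04) and a second quantile normalization (0.01), and lay between −0.06 and 0.06 with each culture left out, the positive value without high density replicate 2. KLF4 lay between −0.18 and 0.04, the positive value without normal density replicate 2. The cause was not tested. JUN, uncalled throughout, had an adjusted p of at least 0.05 in 7 of the 15, among them the replicate block. Samples of equal replicate number did not deviate together (correlations over all transcript clusters of 0.05, −0.05 and −0.04 for replicates 1, 2 and 3), and with a replicate block 2020 transcript clusters and 4 of the factors were called. For the paralog differences the block allows no p below 0.25, and no direction changed. In all, 2005 transcript clusters were called, and between 1611 and 2434 in the alternatives, the highest without high density replicate 2. Of 41 called transcript clusters in the other lists 33 were tested and called in all alternatives. DUSP4 was removed by the filter at background and called in the other 14, and 7 lost their call in at least 1, which were SNAP25, HAS2, RUNX2, EGR2, NAB2, HSF2 and DNAJA1. Signals below background limit what can be said of NR4A3, KLF4, EGR2 and HAS2.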

Other observations

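The families around the 10 factors, taken by gene symbol after the values were seen, moved unevenly. For comparison, 3.97% of all transcript clusters were called higher and 7.49% in either direction. Of 25 KLF and SP factors KLF6 and KLF16 rose, by 0.73 and 0.68 on the log2 scale, and none fell, with a median of 0.11. This share of called genes is close to the 7.49% of the whole array. Of 26 AP-1, ATF, CREB and MAF factors 5 rose and none fell. These were JUNB, JUND, ATF3, ATF4 and ATF5, the last with 0.61, and the median of the family was 0.15. Of the 6 EGR and NAB transcript clusters EGR1, EGR2 and NAB2 rose and the others were not called.

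The nuclear receptors changed in both directions, with 5 of 49 transcript clusters called higher and a median of 0.02. NR4A1 had the largest log2 fold change of the family, followed by the thyroid hormone receptor THRB with 0.88 and the corepressor NR0B2 (SHP), which rose at least 1.25-fold from signals below background. RORA rose by 0.62, and VDR was called with mean signals of 3.86 and 4.55, both below background. In 2 of the 3 high density cultures the VDR signal, 4.71 and 4.62, was at or just above the background level. Among those called lower, the glucocorticoid receptor NR3C1 and the bile acid receptor NR1H4 fell by 0.70 and 0.76.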
